A study of Homo sapiens with 14 samples.

Results

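Cohesin is a ring-shaped protein complex that holds sister chromatids together and folds chromatin into loops. Its long arms are the ATPases SMC1A and SMC3, the kleisin RAD21 closes the ring, and STAG1 or STAG2 binds RAD21 as alternative HEAT-repeat subunits. NIPBL loads the ring onto DNA, WAPL releases it, and PDS5A and PDS5B bind the ring and regulate both steps. The complex is needed in every dividing cell. The 9 genes described here are the ring subunits, the regulators bound to them, the loader and the release factor: SMC1A, SMC3, RAD21, STAG1, STAG2, NIPBL, WAPL, PDS5A and PDS5B. They held 640 of the 394915 C-to-U edit sites of the series, at 600 distinct positions, and are 9 of the 16707 genes with an edit site on their own strand. The set was selected on the 1 ng libraries, where the number of STAG2 sites was known to differ between antibody and control, so all values at 1 ng are described and not tested, and only the comparison at 100 pg is tested.

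The libraries come from INSCRIBE, an assay in which an antibody to an RNA-binding protein is bound in fixed cells and a nanobody fused to the cytidine deaminase APOBEC1 then converts nearby C to U. The antibody here was against RBFOX2, a splicing regulator that recognises UGCAUG in introns and 3′UTRs. The cells were HEK293T, an immortalised line derived from human embryonic kidney (one label field spells the line HEK293XT), fixed in methanol, with all libraries from this 1 line. RBFOX2 libraries (antibody and enzyme, n = 3), an Enzyme-only library (no antibody, n = 1) and Buffer-only libraries (neither antibody nor enzyme, n = 3) were made from 1 ng and again from 100 pg of RNA, which gives 14 libraries. RNA of both inputs may come from the same slides, so the inputs are not known to be independent. Replicates are separate slide wells of this line, and the p-values therefore measure the technical spread. Enzyme-only values have no replicate check.

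Each deposited edit site has a coverage, a number of edited reads and a SAILOR score, the confidence that the caller assigns to it. A library held 40162 to 42589 sites with RBFOX2 at 1 ng and 20330 to 22543 with Buffer-only at 1 ng. At 100 pg these ranges were 26554 to 27437 and 18650 to 21140, and the Enzyme-only libraries held 38007 and 24829. Read totals were not given with the sites, and coverage is known only where a site was called, so neither the RNA level of a gene nor the coverage of its unedited bases can be read from these files. In such bulk RNA, fewer cells with a transcript and less RNA per cell cannot be told apart. The edit files hold no expression level, so the cell line could not be checked against markers beyond edit sites. Of 8 genes typical of other cell types, 6 had no edit site in any library, COL1A1 had a site in 2 libraries and GFAP in 1.

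Few positions in the cohesin transcripts were edited more than once. Of the 600 positions, 566 were edited in 1 library and 34 (5.67%) in 2 or more, beside 10244 of 238030 (4.30%) over all genes. The sequences below, read from hg38 on the sense strand of each gene, show 8 of these recurrent positions. They were chosen for recurrence in RBFOX2 libraries, or as counterexamples that were also edited in a control. Capitals mark the edited C and any UGCAUG (written TGCATG in the genome).

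SMC1A (chrX:53378390-53378419, minus strand, 3′UTR), edited in 4 RBFOX2 libraries and no control: atctgTGCATGttaCttaatgtagctcaat
SMC1A (chrX:53378245-53378274, minus strand, 3′UTR), edited in 2 RBFOX2 libraries and 1 Enzyme-only library: acacaggagcatcaCtatgcctgtgtgaaa
PDS5B (chr13:32776209-32776238, plus strand, 3′UTR), edited in 3 RBFOX2 libraries and no control: agattgccccataaCatagtttttcatcaa
PDS5B (chr13:32775358-32775387, plus strand, 3′UTR), edited in 2 RBFOX2 and 2 Buffer-only libraries: gcttttatctgcggCtttaaactgacagta
STAG2 (chrX:124102017-124102046, plus strand, 3′UTR), edited in 1 RBFOX2 and 1 Enzyme-only library: caatacaagaatatCttcagatgggtgaat
SMC3 (chr10:110604393-110604422, plus strand, 3′UTR), edited in 2 RBFOX2 libraries and no control: caatagttttcagaCttaaagcatcatagt
PDS5A (chr4:39824419-39824448, minus strand, 3′UTR), edited in 2 RBFOX2 libraries and no control: tttattttagaaaaCtgttgcatcaatata
WAPL (chr10:86467435-86467464, minus strand, coding sequence), edited in 2 RBFOX2 libraries and no control: agagatcgtttgaaCatggatcttgataga

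Only the first of these 8 windows holds a UGCAUG. In 7 of the 8 the edited C follows A or U, the neighbours that APOBEC1 favours, and the exception is the PDS5B position that was also edited in Buffer-only libraries, where the C follows G.

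STAG2, the HEAT-repeat subunit of the more abundant cohesin form in many cell lines, had the most edit sites of the set. At 1 ng its RBFOX2 libraries held 24, 21 and 20 sites (21.7 ± 2.08, SD, n = 3), the Buffer-only libraries 0, 4 and 3 (2.33 ± 2.08), and the Enzyme-only library 10. At 100 pg RBFOX2 held 12, 8 and 14 sites (11.3 ± 3.06), Buffer-only 2, 2 and 1 (1.67 ± 0.577), and Enzyme-only 19. RBFOX2 and Buffer-only libraries did not overlap at either input, while the Enzyme-only library lay below all 3 RBFOX2 libraries at 1 ng and above all 3 at 100 pg. At 100 pg the edgeR log2 fold change of RBFOX2 against Buffer-only, fitted over all genes with TMM scaling, was 1.92 ± 0.67 (SE). It did not pass (edgeR quasi-likelihood p = 0.00656, Benjamini-Hochberg adjusted p = 0.162 over 770 genes), and the exact two-sided permutation p was 0.1, the smallest that 3 against 3 allows. STAG2 entered this fit through its RBFOX2 libraries, since no Buffer-only library held the minimum of 3 sites. Without any scaling between libraries the STAG2 value passed (log2 fold change 2.68, edgeR adjusted p = 0.0201), but so did 12.3% of all 770 genes. At 1 ng the fitted log2 fold change was 1.84 ± 0.52 (SE), given as a description.

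SMC1A, one arm of the ring, came next. Its 1 ng RBFOX2 libraries held 25, 18 and 14 sites (19 ± 5.57), Buffer-only 3, 3 and 2 (2.67 ± 0.577) and Enzyme-only 7. At 100 pg RBFOX2 held 6, 5 and 7 sites (6 ± 1), Buffer-only 3, 3 and 1 (2.33 ± 1.15) and Enzyme-only 5. The groups with and without antibody and enzyme again did not overlap, but at 100 pg the Enzyme-only library fell within the RBFOX2 range. The log2 fold change at 100 pg was 0.56 ± 0.70 (SE), with an edgeR adjusted p = 0.797 and an exact permutation p = 0.1. At 1 ng it was 1.46 ± 0.48 (SE), as a description. SMC3, the partner arm, held 11, 6 and 6 sites with RBFOX2 at 1 ng against 4, 3 and 2 with Buffer-only and 4 with Enzyme-only. At 100 pg SMC3 held 1, 2 and 9 sites with RBFOX2, 1, 2 and 1 with Buffer-only and 4 with Enzyme-only, so that replicates 1 and 2 lay within the Buffer-only range and replicate 3 above it (exact permutation p = 0.7).

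WAPL, which opens the ring and releases it from chromatin, held 10, 12 and 11 sites with RBFOX2 at 1 ng, 7, 3 and 7 with Buffer-only and 11 with Enzyme-only. At 100 pg the numbers were 8, 5 and 8, then 3, 2 and 3, and 4 in the Enzyme-only library. WAPL was the 1 member whose Enzyme-only library lay below all RBFOX2 libraries at 100 pg. Its log2 fold change there was 0.58 ± 0.66 (SE), with an edgeR adjusted p = 0.779 and an exact permutation p = 0.1. At 1 ng the fitted WAPL log2 fold change was -0.39 ± 0.44 (SE), although every RBFOX2 library held more WAPL sites than every Buffer-only library (the fit compares each gene with the other genes of its library).

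RAD21, the kleisin that closes the ring, held more sites in the Enzyme-only library than in any RBFOX2 library. At 1 ng it held 5, 6 and 3 sites with RBFOX2, 2, 2 and 2 with Buffer-only and 7 with Enzyme-only. At 100 pg RBFOX2 held 3, 3 and 9 sites, Buffer-only 0, 1 and 2, and Enzyme-only 13. The RBFOX2 and Buffer-only libraries of RAD21 did not overlap at either input. RAD21 lies on the minus strand of chromosome 8 (116845934 to 116874776, hg38), and its exact permutation p at 100 pg was 0.1.

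STAG1, the alternative to STAG2 in the ring, did not follow STAG2. At 1 ng it held 8, 3 and 4 sites with RBFOX2, 0, 3 and 3 with Buffer-only and 11 with Enzyme-only, and it was the only member whose RBFOX2 and Buffer-only libraries touched at that input. At 100 pg it held 1, 2 and 1 sites with RBFOX2, 5, 2 and 2 with Buffer-only and 6 with Enzyme-only (exact permutation p = 0.3). With RBFOX2 STAG1 was mostly edited in introns, with 12 of 15 sites in the 1 ng RBFOX2 libraries, 8 of them in replicate 1, whereas STAG2 had 18 of 65 there. In the Enzyme-only libraries STAG1 lay mostly in 3′UTRs instead, with 7 of 11 sites at 1 ng and 4 of 6 at 100 pg. The STAG1 sites were shallow, with a median coverage of 9 reads in the 1 ng RBFOX2 libraries against 49 for STAG2.

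NIPBL, the loader, held 4, 4 and 6 sites with RBFOX2 at 1 ng against 2, 2 and 3 with Buffer-only and 6 with Enzyme-only. At 100 pg the NIPBL numbers were 3, 1 and 3 with RBFOX2, 1, 3 and 5 with Buffer-only and 2 with Enzyme-only (exact permutation p = 1). NIPBL therefore showed no excess at the lower input, and its mean there was lower with RBFOX2 (2.33 ± 1.15) than with Buffer-only (3.00 ± 2.00), within the spread. PDS5A, a ring-bound regulator, held 8, 5 and 10 sites with RBFOX2 at 1 ng, 5 with Enzyme-only and none in any Buffer-only library. Set against 3 sites over the Buffer-only group, the upper limit that a count of 0 allows, the pooled PDS5A rate was 2.91-fold higher with RBFOX2. That ratio takes the RBFOX2 count as exact and leaves out its spread between libraries, so it is not a lower limit. PDS5A passed the site minimum at 1 ng through its RBFOX2 libraries alone, as STAG2 did at 100 pg. At 100 pg PDS5A held 0, 4 and 1 sites with RBFOX2, 1 in each Buffer-only library and 1 with Enzyme-only (exact permutation p = 1). Its paralogue PDS5B held 5, 8 and 5 sites with RBFOX2 at 1 ng, 2, 1 and 3 with Buffer-only and 9 with Enzyme-only. At 100 pg PDS5B held 2, 5 and 3, then 3, 2 and 2, and 7 with Enzyme-only (exact permutation p = 0.7). The antibody and buffer groups of PDS5B overlapped at 100 pg, and the Enzyme-only library was the highest at both inputs.

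**Figure D1:**
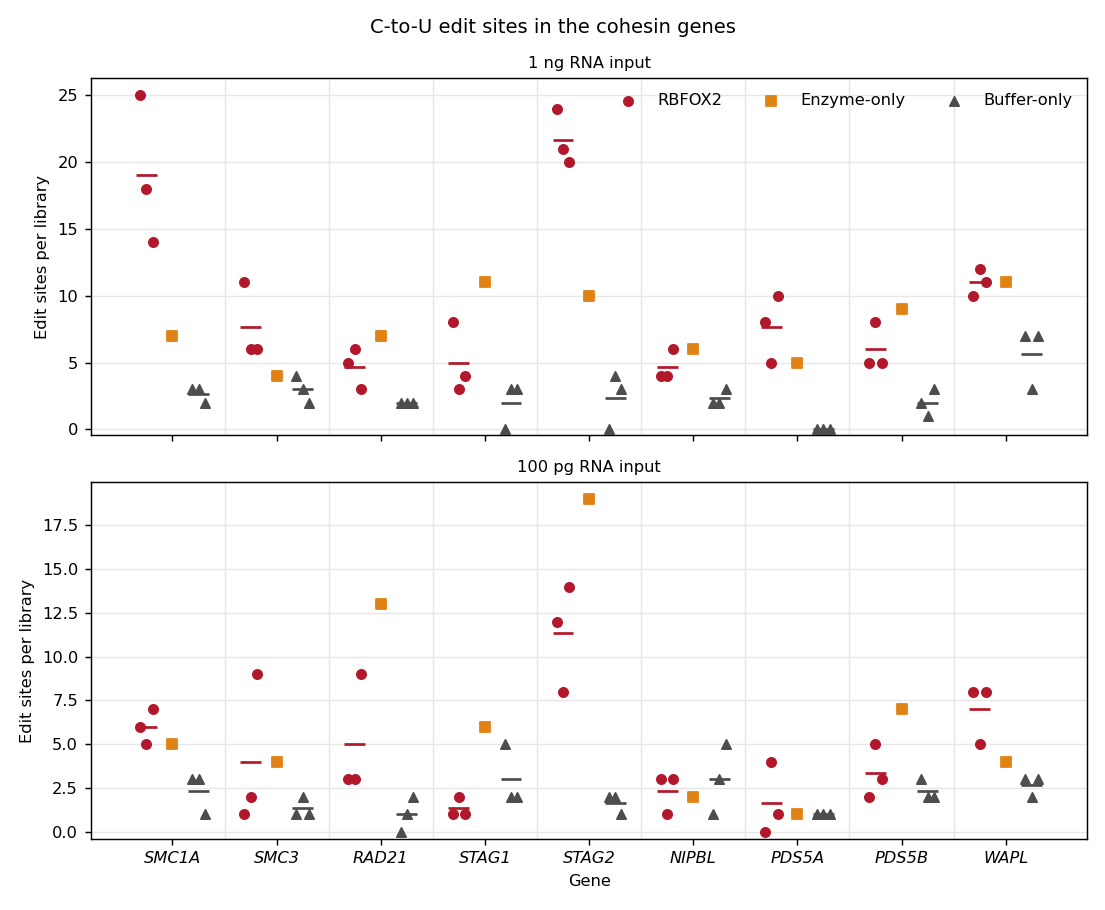
Number of edit sites per library (vertical axis) in each of the 9 cohesin genes (horizontal axis) for 1 ng (top) and 100 pg (bottom) of RNA. Circles are RBFOX2, squares Enzyme-only and triangles Buffer-only libraries, and bars are means of 3 libraries. STAG2 and SMC1A stand highest with RBFOX2 at 1 ng, and the Enzyme-only square of STAG2 (19) and RAD21 (13) stands above all circles at 100 pg.

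As a set, 8 of 9 members at 1 ng had more sites in each of the 3 RBFOX2 libraries than in any Buffer-only library. Of the 2253 genes that passed the site minimum 50.7% did the same, and nothing is read from this count, since the contrast was used to choose the set. At 100 pg the same held for 4 of 9 members (STAG2, SMC1A, RAD21 and WAPL). RAD21 had not passed the site minimum there. The like comparison is 3 of the 3 members that passed, beside 24.8% of the 770 genes that passed. These 3 passed through their RBFOX2 libraries, so nothing is read from this count either. None of the 3 members that passed was called higher or lower at 100 pg by edgeR. Of all genes tested, 0.13% (1 of 770) were called higher and none lower. Before adjustment, 81 genes higher and 19 lower had an edgeR p under 0.05. DESeq2 called no gene in either direction. RBFOX2 libraries held more sites in total, so the counts were also set per 10000 gene-strand sites. On that scale the RBFOX2 libraries all exceeded the Buffer-only libraries in 3 members at 1 ng (STAG2, SMC1A and PDS5A, beside 14.8% of genes). At 100 pg they did so in 2 (STAG2 and SMC1A), both among the 3 members that passed the minimum, beside 18.1% of genes that passed.

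STAG2 had 6.95 ± 0.875 sites per 10000 with RBFOX2 at 1 ng and 6.67 ± 1.80 at 100 pg, whereas Buffer-only gave 1.90 ± 1.70 and 1.58 ± 0.476, respectively. SMC1A had 6.11 ± 1.97 and 3.53 ± 0.586, against 2.26 ± 0.560 and 2.19 ± 1.01. In 4 other members the order of the scaled means turned between inputs. RBFOX2 was lower at 1 ng and higher at 100 pg in WAPL (3.52 ± 0.254 against 4.83 ± 2.09, then 4.12 ± 1.04 against 2.57 ± 0.623), SMC3 and RAD21, and the reverse in PDS5B. In no member at 1 ng did every RBFOX2 library lie below every Buffer-only library on this scale, as 10.8% of genes did. At 100 pg STAG1 did so (0.585 to 1.17 against 1.87 to 4.57), as 5.45% of genes did, although STAG1 was too low to pass the site minimum. At 1 ng the median fitted log2 fold change was -0.01 over the 8 members other than PDS5A, beside 0.22 over all genes tested. It was 0.00 with PDS5A included at its ratio against 3 Buffer-only sites.

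**Figure D2:**
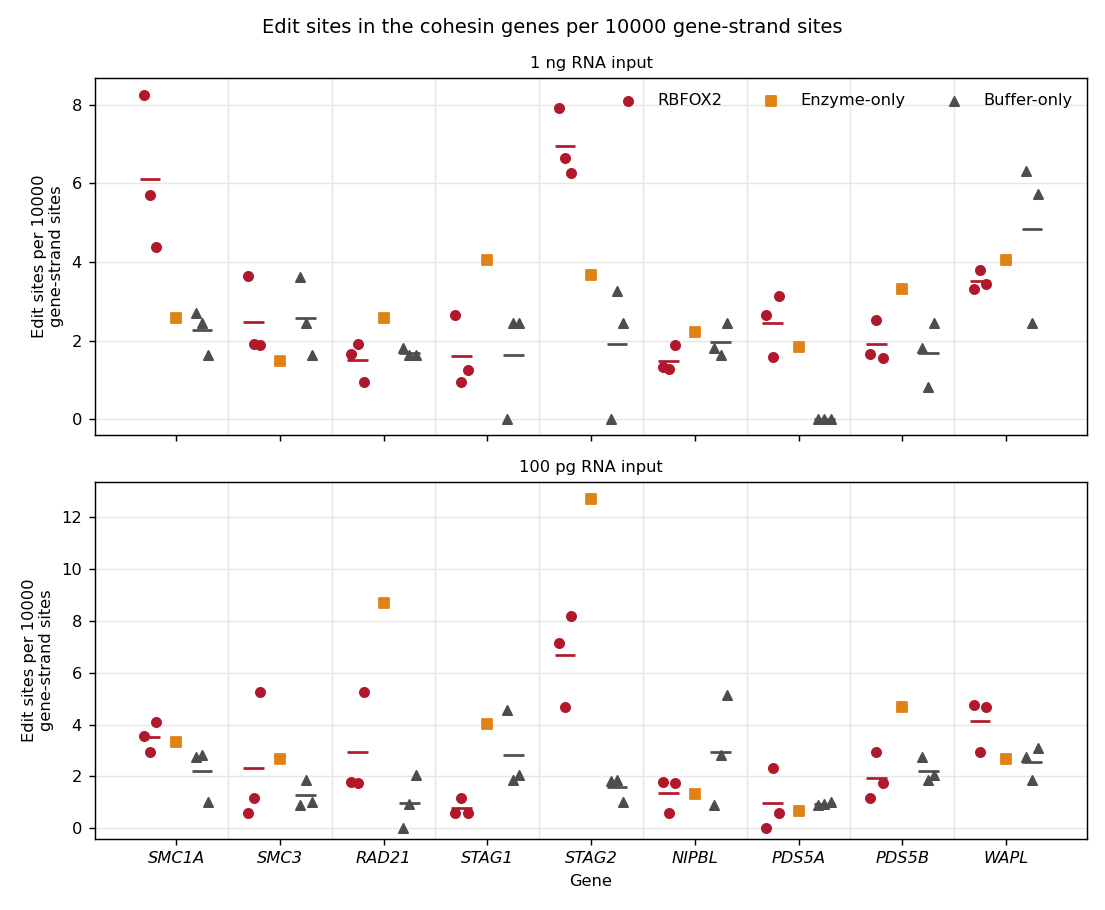
Edit sites per 10000 gene-strand sites (vertical axis) for the same genes, inputs and libraries, with bars for the means of 3 libraries. STAG2 and SMC1A keep all RBFOX2 circles above all Buffer-only triangles at both inputs, while SMC3, RAD21, STAG1, NIPBL, PDS5B and WAPL overlap at 1 ng.

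Where in the transcripts the sites lay differed between groups. A site was classed as 3′UTR if any annotated transcript placed it there, even where another made it coding. Of the 38 such STAG2 sites with RBFOX2 at 1 ng, 26 lay in the 3′UTR of 1 representative transcript. Of the 3 such SMC1A sites with Buffer-only at 100 pg, 1 did. Of the members' sites, 54.1% ± 2.98 lay in 3′UTRs with RBFOX2 at 1 ng and 24.2% ± 4.29 with Buffer-only. At 100 pg these shares were 50.7% ± 4.92 and 20.2% ± 8.81. The ranges of the 2 groups did not overlap at either input. The Enzyme-only library had 31.4% at 1 ng (95% Wilson interval 21.8 to 43.0%) and 67.2% at 100 pg (54.7 to 77.7%), so it lay below the RBFOX2 libraries at 1 ng and above them at 100 pg. Over all genes the shares were closer together, with 51.0% ± 0.436 against 37.3% ± 0.683 at 1 ng and 43.0% ± 0.716 against 31.5% ± 0.770 at 100 pg. The members' Buffer-only shares rest on 4, 6 and 6 3′UTR sites per library at 1 ng and 2, 5 and 4 at 100 pg. Of the members' 141 RBFOX2 3′UTR sites at 1 ng, 44 were in SMC1A and 38 in STAG2, on which the set was chosen. The intervals cover counting error only, since sites of 1 transcript share their reads.

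**Figure D3:**
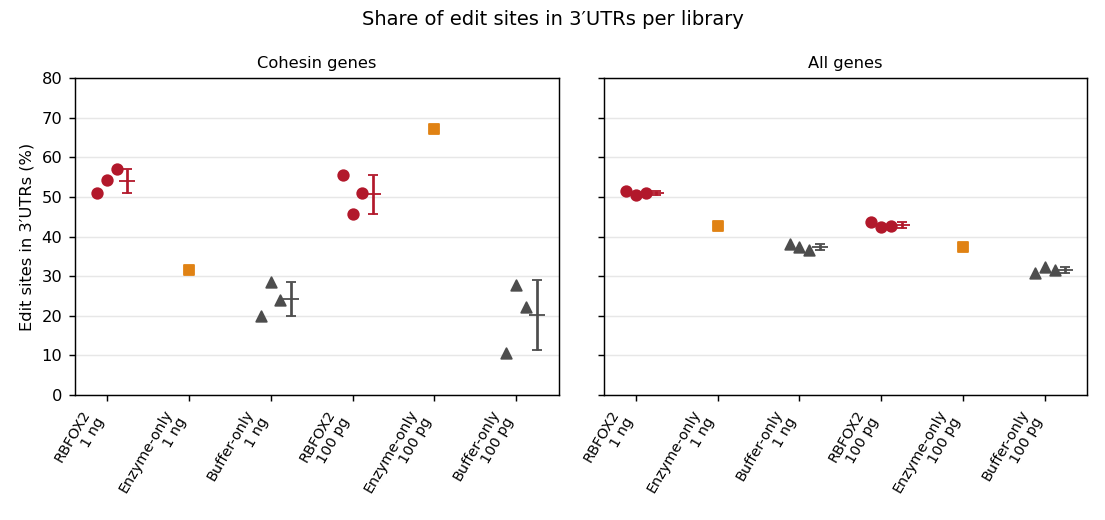
Percent of edit sites in 3′UTRs (vertical axis) for each library, in the 9 cohesin genes (left) and in all genes (right), by group and input. Symbols are libraries, and the error bars are mean ± SD of 3. In the cohesin genes RBFOX2 libraries sit above Buffer-only libraries at both inputs, and the Enzyme-only library moves from 31.4% to 67.2%.

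By gene, PDS5B had the largest share in its 3′UTR in the 1 ng RBFOX2 libraries (15 of 18 sites), followed by SMC1A (44 of 57), RAD21 (9 of 14), STAG2 (38 of 65) and PDS5A (12 of 23). SMC3 was the opposite case, with 17 of 23 sites in its coding sequence, and 9 of 12 at 100 pg. Sites inside the 3′UTR of 1 representative transcript were also set per kilobase of that 3′UTR and per library. On this scale STAG2 had 4.20 sites at 1 ng with RBFOX2, SMC1A 2.35, WAPL 1.75, RAD21 1.70, PDS5B 1.68, PDS5A 1.40, SMC3 0.953, STAG1 0.330 and NIPBL 0.219. The SMC1A 3′UTR is 5957 nt long and that of STAG2 2062 nt, so SMC1A, close to STAG2 in sites per library, lay well below it per annotated kilobase. This order depends on the annotated length, since the covered length is not known. The SMC1A sites with RBFOX2 at 1 ng had a median coverage of 143 reads in this 3′UTR. Those farthest from its start, at 2264, 2336, 3993 and 4686 nt, had 11, 13, 11 and 5 reads. In Buffer-only libraries at 1 ng the highest value of a member per kilobase and library was 0.437, in WAPL. The Enzyme-only library at 1 ng lay above the RBFOX2 mean in STAG1 (2.47) and below it in every other member. At 100 pg it lay above RBFOX2 in STAG2 (6.79 against 2.75), RAD21 (6.37 against 1.91), SMC3, STAG1 and PDS5B. It lay below RBFOX2 there in SMC1A, WAPL, NIPBL and PDS5A.

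The base before the edited C also differed. In the RBFOX2 libraries 81.9% ± 3.07 of the members' sites at 1 ng and 74.9% ± 4.94 at 100 pg followed A or U, against 50.05% ± 6.33 and 50.8% ± 6.76 in Buffer-only libraries. Enzyme-only libraries were like the RBFOX2 libraries in this measure, with 80% (95% Wilson interval 69.2 to 87.7%) and 73.8% (61.6 to 83.2%). The strand gave the same picture, taken for the members alone. Counted over both strands of the gene spans, 79.1% ± 8.22 of sites at 1 ng and 65.6% ± 5.83 at 100 pg lay on the sense strand with RBFOX2, against 47.4% ± 7.51 and 43.9% ± 3.70 with Buffer-only. The numbers of sites opposite to the genes overlapped between groups, at 23 ± 8.89 with RBFOX2 and 25 ± 7 with Buffer-only at 1 ng.

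RBFOX2 binds UGCAUG, and its sites were searched on the sense strand of each gene as the letters TGCATG. In the 3′UTR of 1 transcript per gene, SMC1A held 6 copies, PDS5B 2 and RAD21 1, and the other 6 members none. STAG1, STAG2, SMC3 and WAPL each held 1 in the coding sequence. Of all 19936 protein-coding 3′UTRs, 32.6% held at least 1, and of 1012 3′UTRs of about the length of that of SMC1A, 82.3% did. For 3′UTRs of about the length of that of STAG2 the share was 47.3%. SMC1A was thus among the majority of long 3′UTRs with the motif, and STAG2 had the most sites per kilobase with none.

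Sites near the motif were few. Within 50 nt of the centre of a UGCAUG lay 15 of 262 members' sites with RBFOX2 at 1 ng (5.73%, 95% Wilson interval 3.5 to 9.23%), 1 of 70 with Enzyme-only (1.43%, 0.253 to 7.66%) and 0 of 66 with Buffer-only, which allows up to 4.55%. At 100 pg the numbers were 4 of 126 (3.17%, 1.24 to 7.88%), 1 of 61 (1.64%, 0.290 to 8.72%) and 1 of 55 (1.82%, 0.322 to 9.61%). These pooled sites come from few transcripts and are not replicates. By library, the shares with RBFOX2 at 1 ng were 7%, 7.23% and 2.53%, above 0% in each Buffer-only library, and at 100 pg they were 2.78%, 2.86% and 3.64% against 5.26%, 0% and 0%, which overlap. Each share at 100 pg rests on at most 2 sites. Among 3′UTR sites alone, the Enzyme-only share at 1 ng was 4.55% (1 of 22), beside 6.38% with RBFOX2 (9 of 141). Over all genes the RBFOX2 share was 6.17% at 1 ng and 4.61% at 100 pg, and the Buffer-only share 2.56% and 2.68%. SMC1A held 8 of the 15 near sites at 1 ng and 2 of the 4 at 100 pg, and the remaining near sites, at most 3 to a gene and group, lay in STAG1, SMC3, RAD21, NIPBL, WAPL and PDS5B.

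In SMC1A these sites gathered around 1 of the 6 motifs, at chrX:53378409-53378414, with 35 sites within 200 nt over all libraries. The next motif had 14, of which some are the same sites because the windows overlap, and each of the others had 0 or 1. Within 200 nt of its centre lay 10, 10 and 5 sites in the 1 ng RBFOX2 libraries, 3 in the Enzyme-only library and none in the Buffer-only libraries. At 100 pg there were 1, 2 and 1 sites with RBFOX2, 3 with Enzyme-only and none with Buffer-only. Within 50 nt, RBFOX2 held 4, 3 and 0 sites at 1 ng and 1, 1 and 0 at 100 pg, and no control library held any. The Enzyme-only library at 1 ng did hold a site within 50 nt of the next motif (53378664, 3 of 118 reads). Buffer-only libraries held only 2 sites in this whole 3′UTR at 1 ng and 1 at 100 pg, so their absence near the motif says little. Within 300 nt lay all 4 Enzyme-only 3′UTR sites of SMC1A at 1 ng and all 3 at 100 pg. The 3′UTR sites with RBFOX2 at 1 ng had a median coverage of 143 reads, whereas those at 53379561 and 53376113, near other motifs, had 18 and 11. Whether the gathering follows coverage was not tested. The position that recurred most was the C at 53378405, whose window is the first sequence above, where 3 bases separate the motif from the edited C. It was edited in 3 of 168 reads (1.79%, 95% Wilson interval 0.609 to 5.12%) and 2 of 148 reads (1.35%, 0.371 to 4.79%) in RBFOX2 replicates 1 and 2 at 1 ng. At 100 pg it was edited in 20 of 110 reads (18.2%, 12.1 to 26.4%) in replicate 1 and 11 of 119 (9.24%, 5.24 to 15.8%) in replicate 2. In both inputs replicate 3 had no call there. Both intervals at 100 pg lie above both at 1 ng, but a rise between inputs was not particular to this C. Over all sites the RBFOX2 libraries held 88236 to 94871 edited reads at 1 ng. At 100 pg they held 98375 to 103525 in fewer sites. The paper reports that very low input inflates edit fractions.

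**Figure D4:**
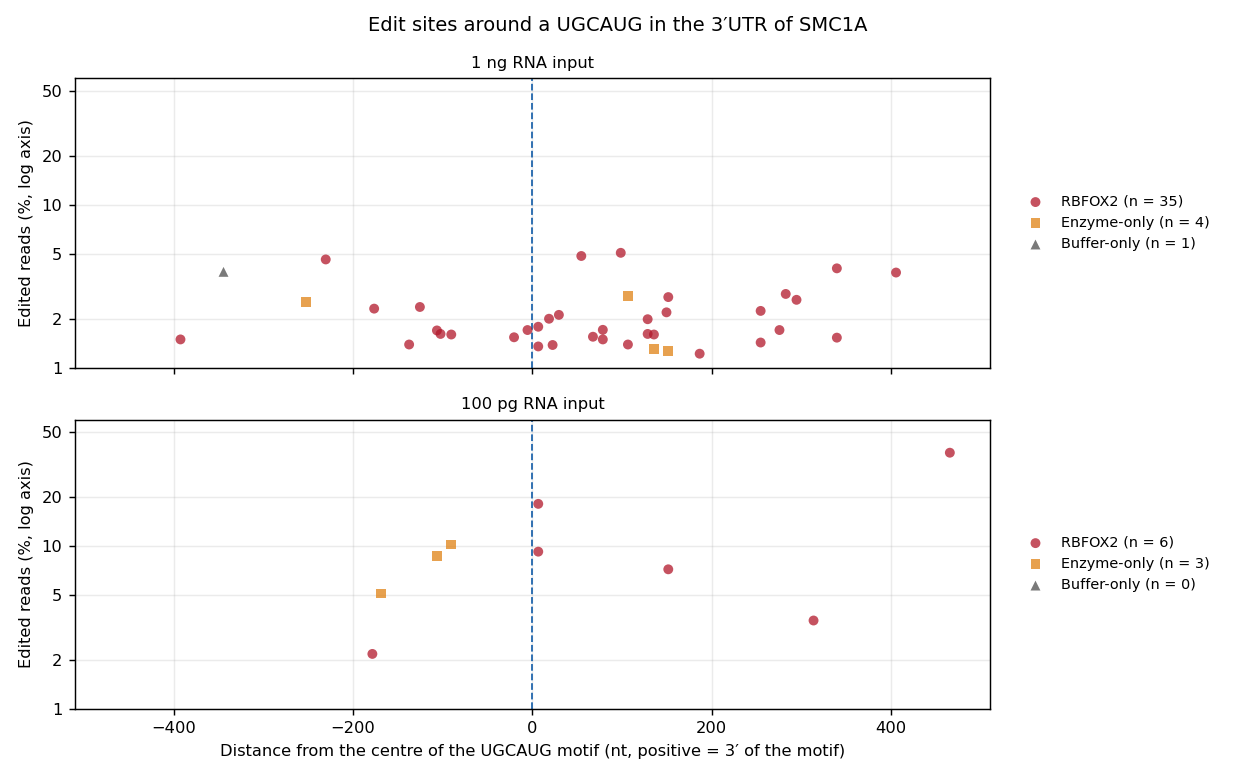
Edit sites on either side of the UGCAUG in the 3′UTR of SMC1A around which its sites gathered. The horizontal axis is the distance from the motif centre (dashed line, positive towards the 3′ end) and the vertical axis the percent of reads edited on a log scale, with all libraries of a group drawn together. At 1 ng the 35 RBFOX2 sites lie on both sides of the motif at 1.22 to 5.08%, and the 2 RBFOX2 sites nearest to it at 100 pg are at 18.2% and 9.24%.

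The second SMC1A sequence above lies downstream of the motif and was edited in 5 of 184 reads (2.72%, 1.17 to 6.20%) in RBFOX2 replicate 3 at 1 ng. The same C was edited in 9 of 125 reads (7.20%, 3.83 to 13.1%) in replicate 2 at 100 pg and in 2 of 158 reads (1.27%, 0.348 to 4.50%) in the Enzyme-only library at 1 ng. Editing in this stretch was therefore seen without antibody too. The first PDS5B sequence was edited in 3 of 8 and 2 of 8 reads at 1 ng and in 6 of 22 (27.3%, 13.2 to 48.2%) at 100 pg, at a coverage so low that the lower bound at 1 ng was 7.15%. The second PDS5B sequence, edited in RBFOX2 and Buffer-only libraries alike, never had more than 2 edited reads.

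STAG2 sites lay along most of its 3′UTR, which held no UGCAUG for sites to gather around. In the 3′UTR of the 1 transcript used for position, the 26 RBFOX2 sites at 1 ng ran from 139 to 1740 nt after the stop codon with a median at 1084 nt. The 17 RBFOX2 sites at 100 pg ran from 87 to 1831 nt with a median at 1343 nt. Reads edited summed to 2.36% of the coverage at these sites at 1 ng and 10.4% at 100 pg. Over all members' sites the median percent edited per RBFOX2 library rose too, from 4.86 ± 0.901 to 10.2 ± 3.99. The remaining 3′UTR sites of STAG2 lay in 3′UTRs of other annotated transcripts. In the Enzyme-only library at 100 pg, 9 of 14 sites lay between 326 and 418 nt, at a coverage of 6 to 24 reads. RBFOX2 replicate 3 had 3 sites in that stretch and shared 2 of its positions, with 3 of 14 reads edited (21.4%, 7.57 to 47.6%) against 2 of 6 (33.3%, 9.68 to 70.0%), and 6 of 37 (16.2%, 7.65 to 31.1%) against 5 of 20 (25%, 11.2 to 46.9%). The STAG2 sequence above, farther downstream, was edited in 14 of 57 reads (24.6%, 15.2 to 37.1%) in that RBFOX2 library and 11 of 77 (14.3%, 8.17 to 23.8%) in the Enzyme-only library, with overlapping intervals.

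**Figure D5:**
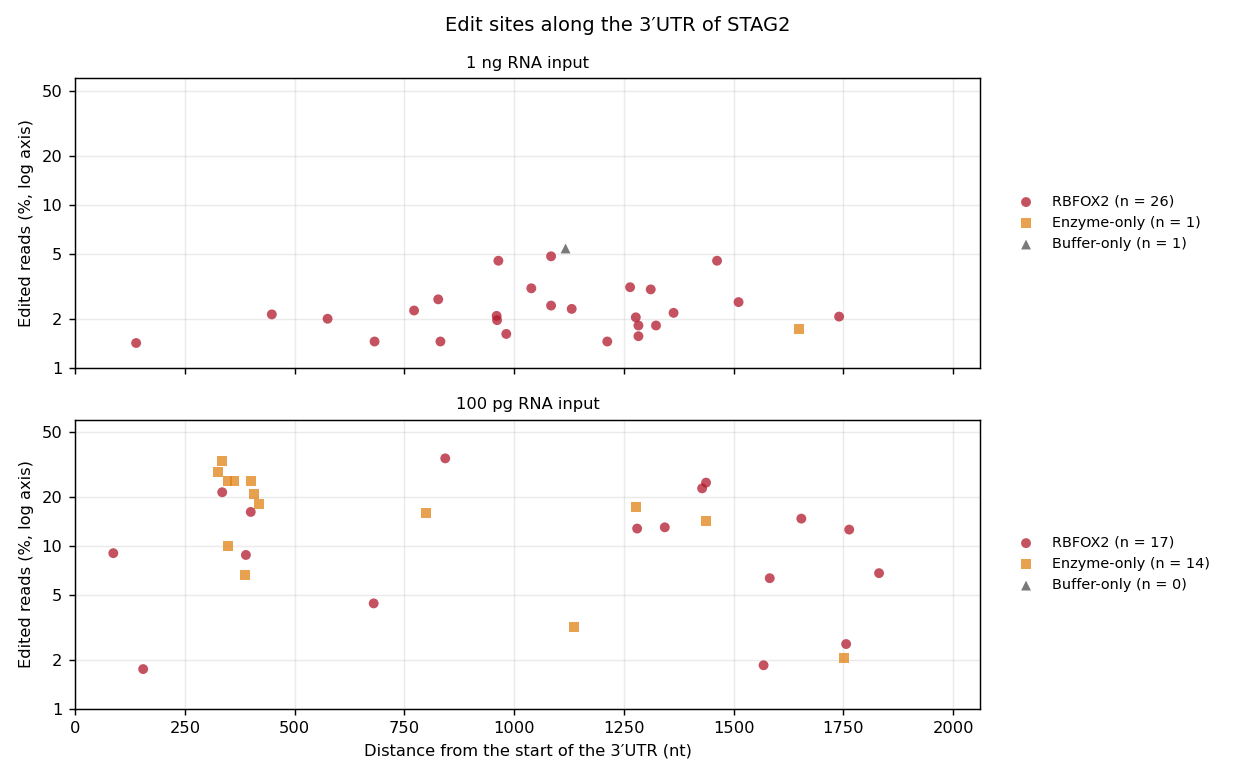
Edit sites along the 3′UTR of STAG2, with distance from its start on the horizontal axis and percent of reads edited on a log vertical axis, for 1 ng (top) and 100 pg (bottom). All libraries of a group are drawn together. The 26 RBFOX2 sites at 1 ng spread from 139 to 1740 nt, and 9 of the 14 Enzyme-only sites at 100 pg lie between 326 and 418 nt.

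Of the 34 recurrent positions, 16 were edited in 2 or more RBFOX2 libraries, 17 in RBFOX2 and Enzyme-only libraries, 2 in RBFOX2 and Buffer-only libraries, and 1, in NIPBL, in Buffer-only libraries alone. In all, 28 of the 34 were in a 3′UTR of some annotated transcript. For STAG2 positions 124078003 and 124081491 this was not the 3′UTR of the transcript used for position. In RAD21, a pair of positions in the 3′UTR was edited in RBFOX2 replicate 2 (13.7%, 6.81 to 25.7%, and 10.7%, 5.0 to 21.5%) and in the Enzyme-only library (9.90%, 5.47 to 17.3%, and 10.7%, 6.07 to 18.1%) at 100 pg. The library numbers behind each group differ (6 RBFOX2, 2 Enzyme-only, 6 Buffer-only), so these counts are not rates.

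The deposited lists of confident clusters, regions where the caller FLARE found edits beyond the local background and that were intersected over the 3 replicates, held 7 clusters in 4 of 9 members at 1 ng, of 776 in all, where 19.5% of the 2253 genes that passed the site minimum had one. The 1 ng list comes from the libraries that chose the set, so nothing is read from this count. No member had one among the 214 at 100 pg, and none was in a Buffer-only list. At 100 pg only 3 members passed the site minimum, and 13.8% of the 770 genes that passed had a cluster. All 7 were in 3′UTRs. SMC1A had 3 (53378140 to 53378184, 53378245 to 53378379 and 53378500 to 53378544 on chromosome X), STAG2 had 2 (124101550 to 124101594 and 124101880 to 124101924 on chromosome X), SMC3 had 1 (110604382 to 110604426 on chromosome 10) and PDS5A had 1 (39824409 to 39824453 on chromosome 4). None of the 7 contained a UGCAUG, and the 3 of SMC1A flanked the motif on both sides.

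The clusters rested on few edits. In the longest, the SMC1A cluster of 135 nt, the 1 ng RBFOX2 libraries had 3, 4 and 4 edit sites inside, and the overlapping library clusters had 0.385%, 0.380% and 0.649% of target bases edited. The Enzyme-only library at 1 ng also had a cluster there, with 0.359% of target bases edited, and RBFOX2 replicate 2 at 100 pg had one with 0.742%. The SMC3 cluster, whose recurrent C is the SMC3 sequence above, had 0.372%, 1.41% and 0.693% edited over the 3 replicates and no cluster in any control. In the second STAG2 cluster and the first SMC1A cluster, replicate 2 had no cluster that overlapped the listed interval, only one that abutted it. In the 1 ng list before the authors removed clusters also seen with Buffer-only, which held the same 7, 822 of 907 clusters overlapped a cluster of all 3 replicates and 85 a cluster of 2. The second STAG2 cluster also overlapped a cluster of the Enzyme-only library at 100 pg, with 1.77% of target bases edited. The third SMC1A cluster overlapped one there too, with 0.893%, above the 0.187%, 0.625% and 0.280% of the 1 ng RBFOX2 replicates.

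Other chromosome-structure genes gave a background for the set. Among 11 cohesin regulators, all had an edit site, 5 passed the minimum at 1 ng and 1 at 100 pg, and no gene was called in either direction at 100 pg by edgeR. HDAC8, the SMC3 deacetylase, had the most sites, with 14.3 ± 2.89 with RBFOX2, 9 ± 2.65 with Buffer-only and 23 with Enzyme-only at 1 ng. At 100 pg HDAC8 had 4 ± 3, 7 ± 1.73 and 4 sites (edgeR adjusted p = 0.22). CDCA5 (sororin), which protects cohesin from WAPL, had 4.67 ± 1.15 sites at 1 ng with RBFOX2 and 0.667 ± 0.577 with Buffer-only. CTCF, which positions cohesin at loop ends, had 4.33 ± 3.21 and 2.67 ± 1.15. The Enzyme-only library at 1 ng held 1 CDCA5 site and 10 CTCF sites. In 2 of the 11 regulators at 1 ng and 1 at 100 pg the groups did not overlap, but none of these had passed the minimum at that input. Among all genes that passed it, the shares without overlap were 50.7% at 1 ng and 24.8% at 100 pg.

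Of 14 subunits of condensin and the SMC5/6 complex, the related SMC rings, 9 passed the minimum at 1 ng and 5 at 100 pg. None was called at 100 pg. The groups did not overlap in 4 at 1 ng, all of which passed, and in 2 at 100 pg, not all of which passed. Among all genes that passed, 50.7% and 24.8% did so. SMC4, an arm of condensin, had 12.0 ± 4.58 RBFOX2 and 3.33 ± 2.31 Buffer-only sites at 1 ng. At 100 pg SMC4 had 8.33 ± 3.06 and 3.33 ± 2.52 (edgeR adjusted p = 0.792). NCAPD3 had 8 ± 2.65 and 2.67 ± 1.53 at 1 ng, and SMC6 7.67 ± 2.08 and 4 ± 1.73. The Enzyme-only library held 4 SMC4, 6 NCAPD3 and 6 SMC6 sites at 1 ng, and 7 SMC4 sites at 100 pg. The meiotic cohesin subunits were nearly empty, with STAG3 at 1.33 ± 0.577 sites with RBFOX2 and 1 ± 1 with Buffer-only at 1 ng, SMC1B and REC8 edited in 1 library each and RAD21L1 in none.

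Among 419 genes with a mean of at least 10 sites in the 1 ng RBFOX2 libraries, the 5 whose scaled site numbers over the 14 libraries were most like those of STAG2 were EIF1AX (Pearson r = 0.889), CMTM6 (0.879), NAP1L1 (0.866), RBM26 (0.846) and NUP155 (0.824). The 14 points fall into groups that differ in enzyme, antibody and depth, so r is a description. On average over 3 libraries, EIF1AX had 22 RBFOX2 sites and 3.67 Buffer-only sites at 1 ng. At 100 pg these means were 9.33 and 1.33. The Enzyme-only library held 12 EIF1AX sites at 1 ng and 10 at 100 pg.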

How the data were processed

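Libraries were prepared from methanol-fixed HEK293T cells and sequenced as single-end reads. The authors trimmed reads (cutadapt), removed repeats, aligned to hg38 (STAR 2.4.0) and called C-to-U sites with SAILOR (known variants removed, score above 0.5, fraction below 0.8). The deposited site files give, per the file headers or values, counts of edited reads and coverage, and a SAILOR score. The deposited cluster files give edit fractions, read counts and FLARE scores (false discovery rate 0.1, merging within 15 nt), and the authors' confident lists hold a coverage signal. The kit is not stated to keep strand.

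Here sites were assigned to Gencode 44 genes on their strand (the authors used Gencode 29) with Python 3.11.15, and UGCAUG distances taken from its centre on hg38. Region classes use all transcripts, and positions 1 transcript per gene. Member counts use the gene spans, and 1 Enzyme-only site in a PDS5A intron, which also lies in a noncoding exon of another gene, was counted for PDS5A. Enzyme-only libraries did not enter the fit. Sites per gene were tested at 100 pg with edgeR 4.0.16 (R 4.3.3) quasi-likelihood, TMM, a minimum count of 3 (5 in total) and Benjamini-Hochberg adjustment at 0.05, after a check on simulated data. DESeq2 1.42.0, other filters, scalings, site minimums and left-out replicates were alternatives. SEs were taken as the log2 fold change over the root of F. Exact permutation tests were two-sided.

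The members and lists were chosen with earlier results of these data known. The text names all members, every confident cluster, recurrent positions, up to 3 genes of each other list with the most sites at 1 ng and the 5 genes most like the member with the most sites. No per-sample column was left unmapped. Intervals and floors (3 counts) cover counting error only, because reads carry no molecular identifiers.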

Additional observations from a re-analysis of the deposited data

How the results depend on the processing

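No log2 fold change of STAG2, SMC1A or WAPL at 100 pg changed sign in any alternative that could be fitted. None of the 3 had the minimum of 3 sites in every Buffer-only library, so each entered the main fit through its RBFOX2 libraries. The steady sign is therefore not independent of the filter. With no scaling 1 member was called higher (STAG2), and 0 in the 14 other alternatives that tested a member; none was called lower. The default filter left no member to test, and at least 2 edited reads left 1. STAG2 ran from 1.82 to 3.83 over the alternatives that left it uncalled (edgeR or DESeq2 adjusted p from 0.0898 to 0.659), SMC1A from 0.41 to 1.32 and WAPL from 0.40 to 1.35. Without each replicate in turn, 0 members were called, and STAG2 ran from 1.82 to 2.27. With the replicate number as a block, 0 members were called, and the adjusted p of STAG2 was 0.209; same-numbered libraries did not deviate together (r = -0.03, 0.01 and -0.02 over 770 genes), so the numbers do not pair the samples. The count of all genes called higher (1) was 95 without scaling, 4 at a coverage of at least 10 reads, 4 for edited reads, 0 under the default filter, DESeq2, at least 2 edited reads or a SAILOR score of at least 0.9, and 0 to 3 without each replicate. The median log2 fold change of all genes was 0.10 and 0.86 without scaling.

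The number of members whose groups did not overlap at 1 ng (8) was 5 with at least 2 edited reads, 5 with a SAILOR score of at least 0.9, 3 per 10000 sites, and 8 to 9 without each replicate. At 100 pg (4) it was 2 with at least 2 edited reads, 2 per 10000 sites, and 4 without each replicate. The share near UGCAUG was 10.7% for RBFOX2 at 1 ng in a window of 100 nt. For RBFOX2 at 100 pg it was 2.38% at 25 nt, 7.14% at 100 nt and 4.69% in 3′UTRs, and for Enzyme-only at 100 pg 0% at 25 nt; Enzyme-only at 1 ng was 4.29% at 100 nt and 4.55% in 3′UTRs. Without each replicate it ran from 4.94 to 7.10% (RBFOX2, 1 ng), 2.82 to 3.33% (RBFOX2, 100 pg), 0 to 0% (Buffer-only, 1 ng) and 0 to 2.70% (Buffer-only, 100 pg). At a FLARE score of at least 0.99 the members' clusters per library fell at 1 ng from 64.0 to 30.7 (RBFOX2), 60 to 34 (Enzyme-only, then above RBFOX2) and 21.3 to 13.3 (Buffer-only), and at 100 pg from 34.7 to 20, 46 to 31 and 18 to 13.3. The causes were not tested. From 55 to 262 sites stand behind each motif share.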
